A study of Mus musculus with 8 samples.

Results

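The genes described here are the 9 that receive a hedgehog signal at the cell surface and pass it to the GLI transcription factors: Ptch1, Smo, Sufu, Cdon, Gas1, Gli1, Gli2, Gli3 and Hhip. They were chosen by symbol, and each was found as 1 row among the 39179 genes of the count table. The libraries come from mouse epithelial cancer cells (strain FVB/B6 mix, with the alleles p48Cre, ROSA_rtTAL+ and p53L+ among others) that carry GFP. The cells were grown for 72 h with RFP-labelled pancreatic stellate cells (PSC) in 0.5% dialyzed FBS and then sorted by colour, and only the cancer cells were sequenced. In 1 arm of 4 libraries the medium held 20 µg/mL of a neutralizing antibody to the ligand sonic hedgehog (SHH), and in the other arm of 4 there was none; no control antibody is named. Genotype, partner cells and serum were the same in both arms, so every library is from co-culture and none from cancer cells grown alone. The Cre is driven by p48, the pancreatic progenitor and acinar factor Ptf1a, and the ROSA allele supplies the transactivator of a doxycycline-inducible system. The labels do not say whether the inducer was present, how many cell lines or clones were used, or how old the source animals were. The question the comparison addresses is whether neutralizing SHH changes the transcripts of the cancer cells, and for these 9 genes also which parts of the receiving machinery the cancer cells express at all.

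In the textbook pathway, PTCH1 holds the membrane protein SMO inactive until a hedgehog ligand binds PTCH1, with CDON, BOC and GAS1 as coreceptors that help ligand binding. Active SMO acts at the primary cilium and frees the GLI factors from SUFU, after which GLI2 and GLI3 act on target genes. Gli1, Ptch1 and Hhip, which encodes a decoy receptor for hedgehog ligands, are themselves target genes, so their transcripts are commonly read as reporters of the pathway. In pancreatic tumours the ligands are made by the cancer cells, and the response is known mainly from the surrounding fibroblasts.

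Each library held between 10009711 and 15733280 counts, and all 4 antibody libraries (at least 14953255) were deeper than all 4 without antibody (at most 14602784). Replicate 1 without antibody stood apart, differing from the others of its arm by a chi-square per degree of freedom of 9.06 to 11.2, against 1.72 to 4.54 between all other pairs within an arm. The label of epithelial cancer cells was borne out by Krt8 (mean 811 RPKM, the authors' length-scaled read count), Krt19 (741 RPKM), Cdh1 (184 RPKM) and Epcam (11.2 RPKM). Of the full list of 12 epithelial markers 11 reached 1 RPKM, Cldn4 at 1.63 RPKM among them, and Cldn7 stood at 0.205 RPKM. Of 11 tested epithelial markers, Epcam (log2 fold change, antibody over no antibody, 0.28) and Cftr (0.74) rose with antibody, where 8.4% of all genes were called in either direction. Epcam was called under 13 of 19 alternative settings and in 3 of the 8 fits that left out a library (adjusted p up to 0.0752), and DESeq2 and limma voom each called 3 epithelial markers. What part such a shift has in the other results was not tested. Ptf1a, whose regulatory region the p48Cre uses, had 0 counts in all 8 libraries. The 18 stellate and fibroblast markers together made up 0.0159% ± 0.0014 (SD, n = 4) of the reads in antibody libraries and 0.0144% ± 0.0017 (SD, n = 4) in the others, and Dcn and Lum, which fibroblasts make in quantity, had 0 counts throughout. Of the same list Col5a1 (13.2 RPKM), Col1a1 (2.03 RPKM) and Col1a2 (1.06 RPKM) reached 1 RPKM. Cd14 (40.4 RPKM) and Cd68 (3.84 RPKM) of the leukocyte markers did so too. So did Cdh5 (3.01 RPKM) of the endothelial and Cela1 (3.11 RPKM) of the acinar markers. Which cells this RNA came from was not tested. The labels describe the samples of an arm as biological replicates, but do not say whether cultures shared a day or a passage, so p-values measure the spread between these samples.

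Ptch1 and Hhip are both textbook GLI targets, of which Ptch1 was expressed and Hhip barely counted, as described below, so the 300 bases around their start sites are shown here (RefSeq, GRCm38.p6; 250 bases before and 50 after the start; 5′ to 3′ along the gene's strand). Capitals mark CG dinucleotides. The Ptch1 window is chr13:63565686-63565985 on the minus strand, and the Hhip window is chr8:80057959-80058258, also on the minus strand.
Ptch1: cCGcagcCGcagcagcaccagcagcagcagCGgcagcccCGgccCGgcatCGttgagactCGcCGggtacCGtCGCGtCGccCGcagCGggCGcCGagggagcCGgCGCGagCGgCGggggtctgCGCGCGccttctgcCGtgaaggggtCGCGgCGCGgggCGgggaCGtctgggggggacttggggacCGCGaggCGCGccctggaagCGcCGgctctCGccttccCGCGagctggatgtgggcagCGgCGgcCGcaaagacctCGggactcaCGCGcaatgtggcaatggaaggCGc
Hhip: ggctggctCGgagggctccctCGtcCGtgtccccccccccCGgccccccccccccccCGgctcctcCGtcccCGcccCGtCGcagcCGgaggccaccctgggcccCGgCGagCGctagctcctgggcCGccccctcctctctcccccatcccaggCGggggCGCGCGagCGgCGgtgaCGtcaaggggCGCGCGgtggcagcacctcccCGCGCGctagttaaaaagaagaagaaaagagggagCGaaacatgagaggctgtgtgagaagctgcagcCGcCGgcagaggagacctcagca
The Ptch1 window held 47 CG dinucleotides and the Hhip window 30, where the median of 32817 mouse promoter windows was 7. Gli3 (39) and Gli2 (28), which were barely expressed, also had CG-rich windows, while Smo, the most highly expressed of the 9, had 17, as had Gas1, and Sufu had 12. The Cdon window had 3, but its RefSeq start lies 30948 bases inside the gene interval of the count table. In the GENCODE M21 annotation Ptch1, on the minus strand, reaches to 63573598, upstream of the Ptch1 window. A start there is not covered. Of the 9 genes 8 matched an entry of the promoter table, and Gli1 had no entry. The GLI recognition sequence GACCACCCA (or TGGGTGGTC on the other strand) was in 0 of the 8 windows and in 0.253% of all windows. This says only that these letters are not in the windows.

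The cancer cells expressed Ptch1, the coreceptor genes Cdon and Gas1 (but not Boc), Smo and Sufu, whereas transcripts of all 3 GLI factors and of Hhip were close to absent. Levels are compared between genes in the authors' RPKM, which divide by gene length and library total. Over the 8 libraries the means were 20.5 RPKM for Smo, 7.59 for Sufu, 5.35 for Ptch1, 3.96 for Gas1 and 2.56 for Cdon. They were 0.0810 RPKM for Gli3, 0.0682 for Gli1, 0.0116 for Gli2 and 0.0084 for Hhip. The step between the lowest gene of the first group and the highest of the second, Cdon over Gli3, was 31.6-fold. From Smo down to Gli3 no gene's range over the 8 libraries met that of its neighbour. Gli3 and Gli1 could not be ordered, since Gli3 was the higher in 5 of 8 libraries, and the ranges of Gli1 and Gli2 and of Gli2 and Hhip also overlapped. In bulk RNA, few cells with a transcript and little transcript per cell cannot be told apart.

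**Figure D1:**
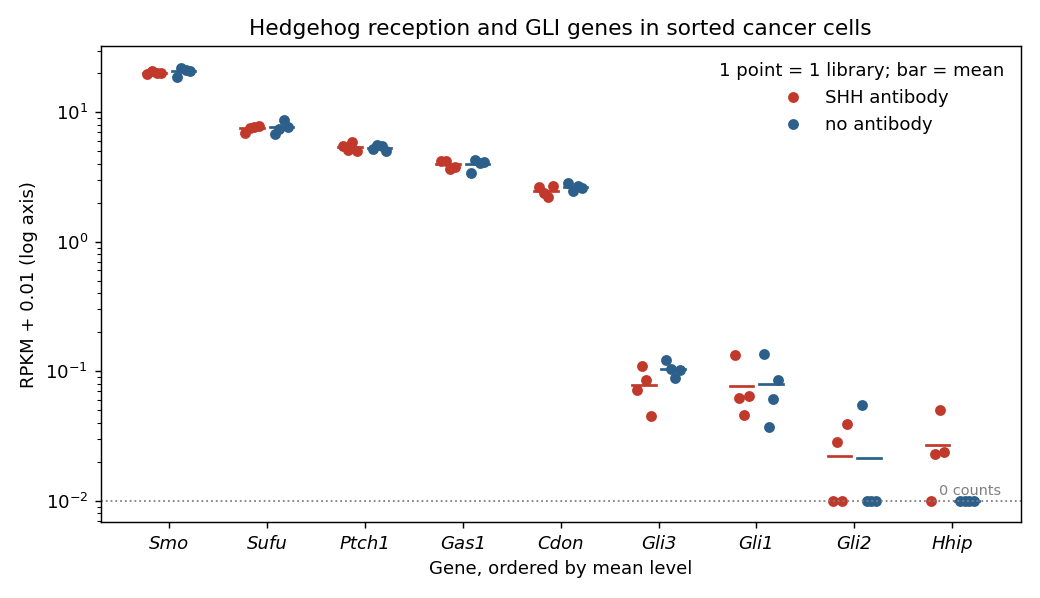
Level of each gene in each library, as RPKM + 0.01 on a log axis, in order of the mean over 8 libraries; each point is a library, each bar the mean of 4, red with SHH antibody and blue without. Smo, Sufu, Ptch1, Gas1 and Cdon lie between 2.22 and 22.2 RPKM in every library, Gli3, Gli1, Gli2 and Hhip at or below 0.126 RPKM.

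Smo, the transducer that PTCH1 restrains (ENSMUSG00000001761, chromosome 6, 29735694 to 29761365, plus strand, GRCm38), had 19.7, 21.0, 20.2 and 20.1 RPKM with antibody and 18.9, 22.2, 21.3 and 20.7 RPKM without. The arms overlapped, with both the lowest and the highest library in the arm without antibody. It stood above 86.0% of protein-coding genes of the table. Its log2 fold change, antibody over no antibody, was -0.04 ± 0.05 SE (adjusted p = 0.708, edgeR quasi-likelihood test, as for all adjusted p given without a tool). A short pseudogene, Gm13717, lies within the Smo interval on the same strand with 3 to 13 counts per library, small beside the 838 to 1249 of Smo.

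Ptch1, the receptor (ENSMUSG00000021466, chromosome 13, 63511533 to 63565520, minus strand), had 5.49, 5.12, 5.85 and 4.97 RPKM with antibody and 5.21, 5.62, 5.53 and 4.99 RPKM without. The range without antibody lay within that with antibody. The log2 fold change was 0.00 ± 0.07 SE, and the 95% interval of the fold was 0.90 to 1.11. The length of 4305 bases behind its RPKM equals the longest Ptch1 coding sequence of GENCODE M21 with its stop codon, although the exons of that annotation cover 14185 bases. Reads in the untranslated regions of Ptch1 therefore do not appear to have been counted, and the level of Ptch1 relative to the other genes rests on its coding part. Hhip (4896 of 9076 bases), Smo (3779 of 5621) and Gli1 (3665 of 4995) were also shorter than in GENCODE M21, as to a lesser extent was Sufu (6945 of 7691), whereas the lengths of Cdon, Gas1, Gli2 and Gli3 were equal to it.

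Within each library, Smo RPKM was 3.80 ± 0.32 times that of Ptch1 with antibody and 3.89 ± 0.22 times without (SD, n = 4 each). The range with antibody, 3.45 to 4.10, overlapped that without, 3.62 to 4.15. Sufu over Ptch1 was 1.41 ± 0.15 and 1.43 ± 0.13, again overlapping. Any difference in the proportions of receptor, transducer and inhibitor transcripts was therefore within the spread between libraries.

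Of the coreceptors, Cdon and Gas1 were expressed and Boc was not. Cdon (ENSMUSG00000038119, chromosome 9, 35421128 to 35507652, plus strand), a membrane protein of the immunoglobulin superfamily, had 2.62, 2.36, 2.22 and 2.67 RPKM with antibody and 2.84, 2.47, 2.68 and 2.57 RPKM without. Its 2 lowest libraries were with antibody and its highest without, but the arms overlapped (log2 fold change -0.11 ± 0.08 SE, adjusted p = 0.479). Gas1 (ENSMUSG00000052957, chromosome 13, 60174405 to 60177365, minus strand), a lipid-anchored surface protein, had 4.19, 4.21, 3.65 and 3.79 RPKM with antibody and 3.40, 4.25, 4.08 and 4.09 RPKM without. Both its lowest and its highest library were in the arm without antibody (log2 fold change 0.00 ± 0.10 SE, adjusted p = 0.995). Boc had 0 counts in every library, out of 109555020 counts in all, which allows up to 0.0274 CPM (counts scaled to library size, not to gene length), a limit set at 3 counts. Summed within each library, Cdon and Gas1 RPKM were 1.21 ± 0.14 times that of Ptch1 with antibody and 1.24 ± 0.07 times without.

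Fibroblasts are known to express Gas1, so its level is given beside that of Col1a1, the collagen gene typical of them. In CPM with TMM scaling, Gas1 ranged from 10.2 to 12.6 over the 8 libraries and Col1a1 from 10.1 to 19.3. Per length Gas1 (3.96 RPKM) was the higher of the pair (Col1a1, 2.03 RPKM). Whether the 2 genes varied together over the libraries was not tested. The full list of 18 stellate markers summed to 142 to 171 CPM with antibody and 135 to 172 CPM without, and 1 of its 9 tested genes was called (8.4% of all genes were), Pdgfra, which fell (log2 fold change -0.84 ± 0.17 SE, adjusted p = 0.0027). Of the 9, however, 7 had a log2 fold change above 0, with a median of 0.24, and 3 had an unadjusted p under 0.05. Besides Pdgfra these were Col1a1 (log2 fold change 0.36 ± 0.15 SE, adjusted p = 0.169) and another collagen gene, Col3a1 (0.66 ± 0.28 SE, adjusted p = 0.156), neither of which was called. Most of that sum was Col5a1, at 104 to 121 CPM, a gene singled out after its values were seen. How much of the Gas1 RNA, or of the collagen RNA, came from stellate cells was not tested.

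**Figure D2:**
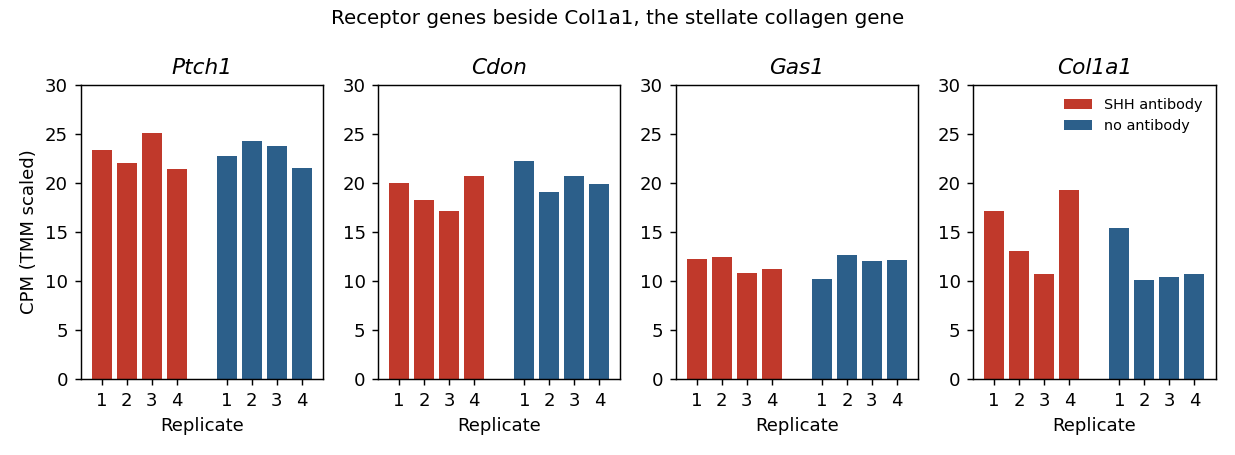
CPM (TMM scaled) of the receptor gene Ptch1, the coreceptor genes Cdon and Gas1, and Col1a1 in each library, red with SHH antibody and blue without; numbers on the x axis are replicates. Gas1 lies between 10.2 and 12.6 CPM and Col1a1 between 10.1 and 19.3 CPM.

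Sufu, the inhibitor that binds GLI proteins in the cytoplasm (ENSMUSG00000025231, chromosome 19, 46396896 to 46488804, plus strand), had 6.92, 7.59, 7.74 and 7.88 RPKM with antibody and 6.84, 7.45, 8.64 and 7.63 RPKM without. The highest library, replicate 3, and the lowest, replicate 1, were both without antibody, and the arms overlapped. The log2 fold change of Sufu came to -0.03 ± 0.06 SE (adjusted p = 0.869), and the 95% interval of its fold ran from 0.89 to 1.08.

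The GLI factors, through which SMO acts on genes, were counted in single reads or small numbers of them. Gli3 (ENSMUSG00000021318, chromosome 13, 15463235 to 15730026, plus strand), known mostly as a repressor of hedgehog targets, was counted 9, 15, 11 and 5 times in the antibody libraries and 14, 9, 8 and 13 times in the others. The antibody libraries included both the highest and the lowest count, and in RPKM they ranged from 0.0349 to 0.0994 against 0.0782 to 0.112, so the arms overlapped. It was the only GLI gene with enough counts to be tested, and its log2 fold change of -0.48 ± 0.34 SE was not called (adjusted p = 0.445). The 95% interval of that fold ran from 0.44 to 1.16, so this depth limits its change only loosely.

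Gli1 (ENSMUSG00000025407, chromosome 10, 127329889 to 127341589, minus strand), an activator whose transcription depends on the pathway, had 15 counts in all with antibody and 13 without. These correspond to 0.245 CPM (exact Poisson 95% interval 0.137 to 0.404) and 0.269 CPM (0.143 to 0.460), intervals that cover counting error only and overlap almost fully. Its highest libraries were replicate 1 of each arm, with 7 and 6 counts. Gli1 shares 55 bases at its 3′ end with Arhgap9 on the other strand, which itself had at most 3 counts.

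Gli2 (ENSMUSG00000048402, chromosome 1, 118834132 to 119053619, minus strand), the main activator at the start of a response, was counted 0, 2, 0 and 3 times in the antibody libraries and 4, 0, 0 and 0 times in the others. All of its counts without antibody thus came from replicate 1, the library that stands apart. The sums, 5 and 4 counts, gave 0.0816 CPM (exact Poisson 95% interval 0.0265 to 0.190) and 0.0828 CPM (0.0226 to 0.212). Together the 3 GLI genes had 60 counts with antibody and 61 without, and their summed RPKM was 0.146 ± 0.037 and 0.175 ± 0.074. Smo was 145 ± 36 times this sum with antibody and 135 ± 52 times without (SD, n = 4 each).

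Hhip (ENSMUSG00000064325, chromosome 8, 79966115 to 80058006, minus strand) was counted 0, 1, 3 and 1 times in the antibody libraries and 0 times in each of the others. The 0 of 48300767 counts without antibody gave 0 CPM (exact Poisson 95% interval 0 to 0.0764), and the 5 counts with antibody gave 0.0816 CPM (0.0265 to 0.190). The 3 libraries with a read were all with antibody, where every library was deeper. In an edgeR fit without a filter on low counts the unadjusted p of Hhip was 0.0399 and the adjusted p 0.278, so Hhip was not called. With so few counts its change is only loosely limited, and a fitted fold against 0 counts is not given. In the same fit Gli1 (adjusted p = 0.951) and Gli2 (adjusted p = 0.995) were not called.

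**Figure D3:**
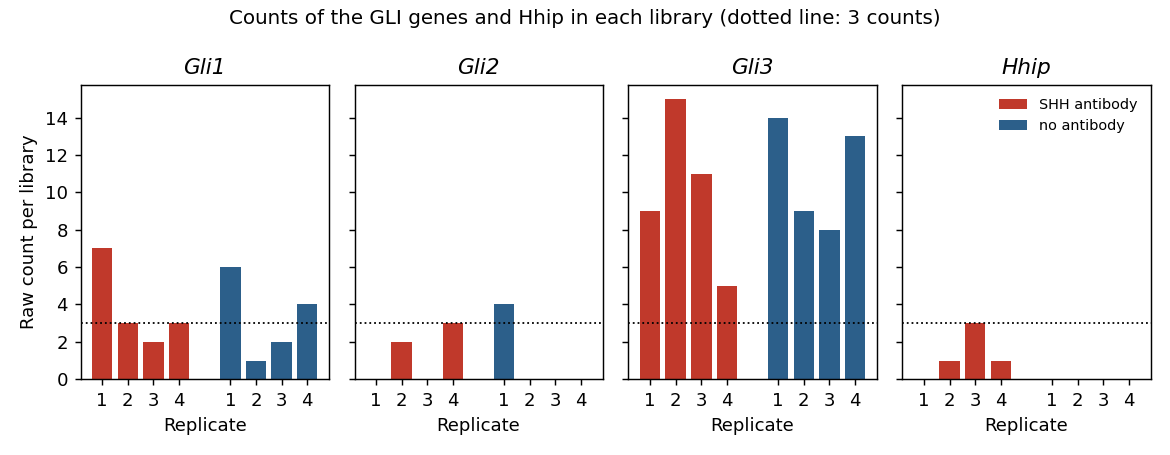
Raw counts of Gli1, Gli2, Gli3 and Hhip in each library, red with SHH antibody and blue without; the dotted line marks 3 counts. Gli3 has 5 to 15 counts per library, Gli1 1 to 7, Gli2 at most 4 and Hhip at most 3.

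With antibody, none of the genes that entered the main test was called. The filter on low counts passed 6 of the 9 (Ptch1, Smo, Sufu, Cdon, Gas1 and Gli3), so the main test says nothing of Gli1, Gli2 and Hhip. Of these 6, 0 were called by edgeR at an adjusted p under 0.05, against 8.4% of the 13626 genes tested (4.53% higher and 3.87% lower). At an unadjusted p under 0.05 the number was also 0, against 21.5% of all genes, and DESeq2 and limma voom called 0. The arms did not overlap in CPM for 0 of the 6 genes, against 14.3% of all genes tested. The median log2 fold change of the 6 was -0.03, beside 0.00 over all genes tested, and with 6 genes such counts say little of the group as a whole. The 95% intervals of the fold lay between 0.89 and 1.11 for Ptch1, Smo and Sufu, between 0.87 and 1.15 for Gas1 and between 0.82 and 1.04 for Cdon. With replicate 1 of the untreated arm left out, the log2 fold changes of the 6 genes ranged from -0.38 (Gli3) to -0.0031 (Ptch1), and again 0 were called.

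**Figure D4:**
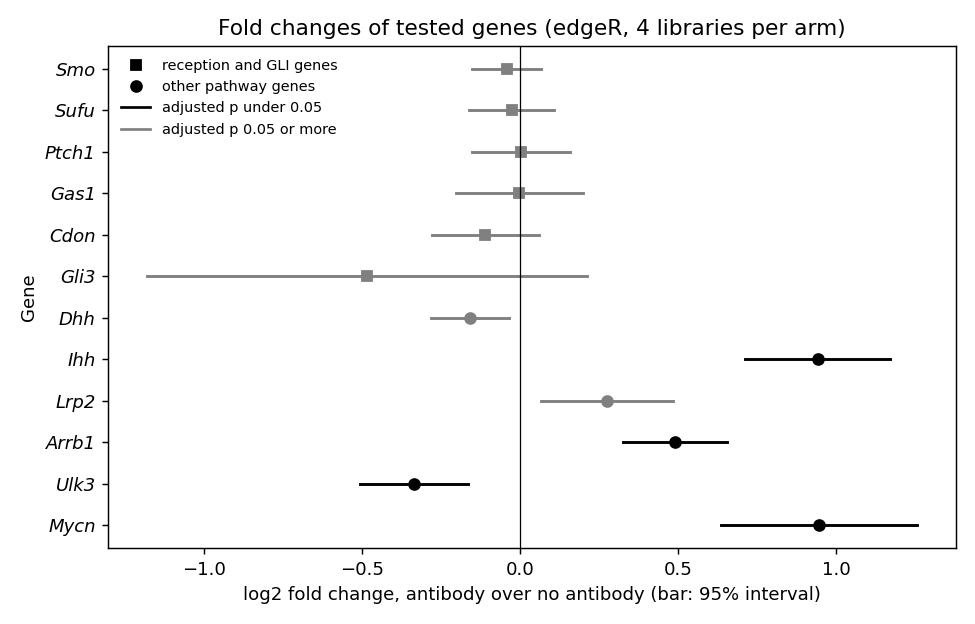
log2 fold change, antibody over no antibody, with its 95% interval for the 6 tested reception and GLI genes (squares) and 6 other pathway genes (circles); black marks an adjusted p under 0.05. All 6 squares have intervals that include 0. Among the circles, Ihh, Arrb1 and Mycn lie above 0 and Ulk3 below, each of them called. The intervals of Lrp2 (0.07 to 0.48) and Dhh (-0.28 to -0.03) also exclude 0, but neither gene was called.

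The patterns of the tested genes over the 8 libraries were compared with those of genes of similar abundance, within 1.5 times in CPM. The measure was the root mean square difference of log2 CPM after centring each gene on its mean. The nearest gene to Ptch1 was Mtfmt (0.03), to Smo Bub3 (0.02), to Sufu Proser1 (0.04), to Cdon Syt11 (0.04), to Gas1 Atrip (0.06) and to Gli3 Glyctk (0.19). The median candidate differed by 0.10 to 0.17 for the first 5 and by 0.55 for Gli3. None of these 6 nearest genes was called, and for genes this flat the measure mainly finds other flat genes.

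Among the other 53 pathway genes, those of the surface and of ligand release were often under 0.1 RPKM. Most of those listed for GLI processing reached 1 RPKM. Boc and Gpc3, a glypican that binds hedgehog ligands, were each under 0.1 RPKM, and Lrp2, a large endocytic receptor that can bind SHH, was the only 1 of these 3 surface genes at 1 RPKM or more. Of 15 genes of the cilium and of SMO trafficking, 13 reached 1 RPKM, among them the transport genes Ift88, Ift172 and Kif3a. The exceptions were Evc (0.823 RPKM), a ciliary partner of SMO, and Kif7, the ciliary kinesin that regulates GLI proteins, with 1 to 6 counts per library (0.0510 RPKM). Of 15 genes of GLI phosphorylation and degradation, 14 reached 1 RPKM and Stk36 stood at 0.894 RPKM. Of 9 ligand and release genes 3 reached 1 RPKM, Dhh (17.9), the transporter gene Disp1 and Ihh (4.25). Shh stood at 0.182 RPKM and Hhat, which encodes the acyltransferase of hedgehog ligands, at 0.0104 RPKM. Of 11 hedgehog target genes 8 reached 1 RPKM. The other 3, Foxl1 (0.0608 RPKM), Sfrp1 (0.0141 RPKM) and Foxf1 (0.0035 RPKM), were under 0.1 RPKM. Apart from Shh, Ihh, Dhh and Lrp2, the genes named here for their level were chosen after their values were seen.

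**Figure D5:**
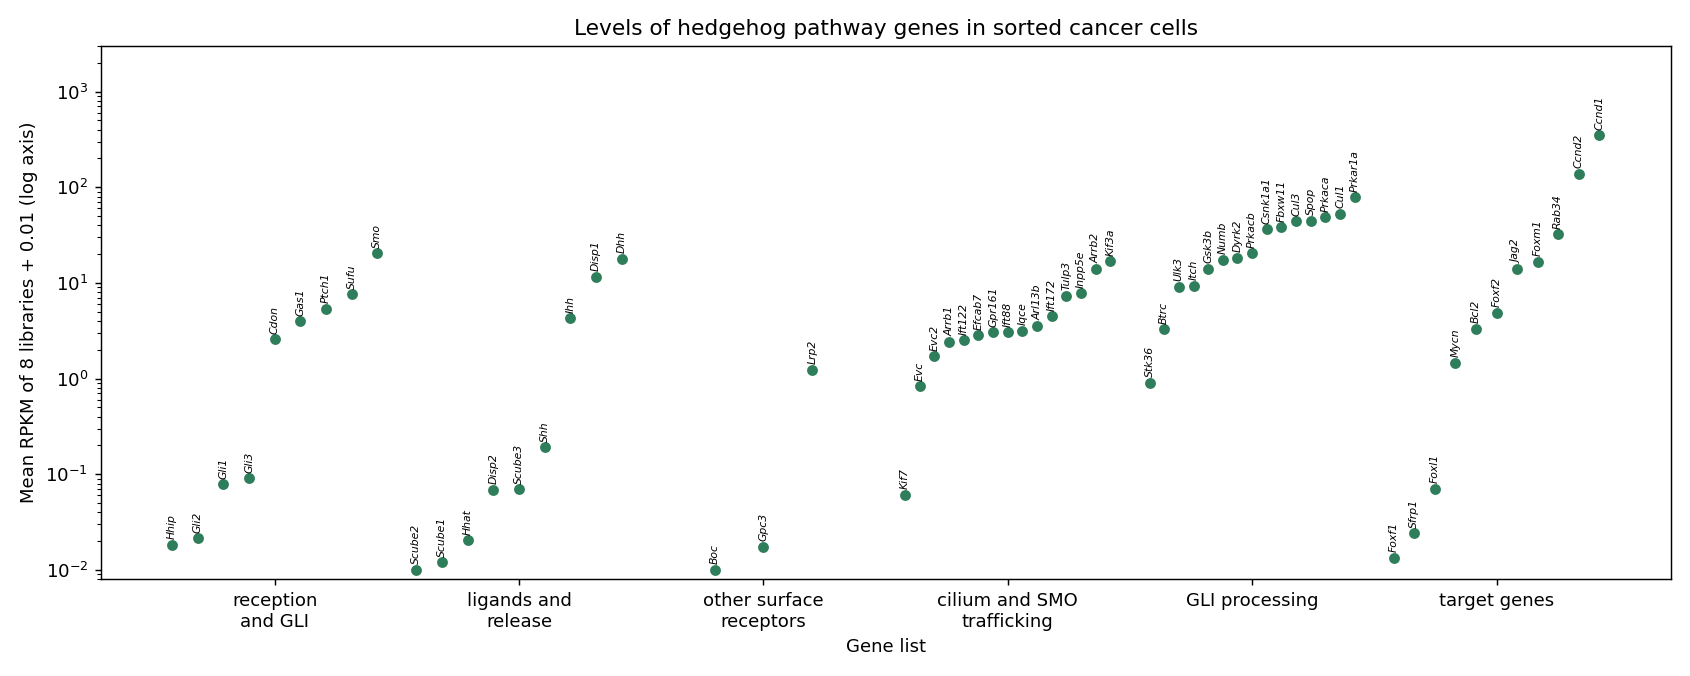
Mean RPKM + 0.01 over 8 libraries, on a log axis, of the 9 reception and GLI genes and of 53 other pathway genes in 5 lists; each point is a gene. The lowest gene of GLI processing, Stk36, lies at 0.894 RPKM. Below 0.1 RPKM lie 4 of the 9 genes (Gli1, Gli2, Gli3 and Hhip) and 11 of the 53 others, Boc, Gpc3 and Kif7 among them.

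Of the 53 genes 41 were tested, and 4 were called: Ihh, Mycn and Arrb1 rose and Ulk3 fell. That is 9.76% of those tested, beside 8.4% of all genes. Mycn, a MYC family transcription factor and known hedgehog target, had 6.75, 7.05, 5.13 and 6.24 CPM with antibody and 2.81, 3.31, 3.65 and 3.35 CPM without. All 4 antibody libraries lay above all others (log2 fold change 0.95 ± 0.15 SE, adjusted p = 0.00023). It was the only 1 of 8 tested target genes to be called. Ccnd1 (log2 fold change -0.02), Ccnd2 (0.07), Bcl2 (0.11), Foxf2 (0.04), Foxm1 (0.02) and Jag2 (-0.01) were not. Neither was Rab34 (-0.11 ± 0.05 SE, adjusted p = 0.165), although its CPM were lower in all antibody libraries than in all others.

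Arrb1, which encodes a β-arrestin, had 29.0, 33.3, 35.5 and 28.9 CPM with antibody and 21.6, 24.4, 23.4 and 21.2 CPM without. The arms did not overlap (log2 fold change 0.49 ± 0.08 SE, adjusted p = 0.00030), and it was the only called gene of the 14 tested in its list. That list also holds the β-arrestin gene Arrb2, which had the higher level (14.0 RPKM, against 2.43 for Arrb1). Arrb2 was not called, and its arms overlapped (log2 fold change -0.06 ± 0.07 SE, adjusted p = 0.635). Ulk3, a kinase that phosphorylates GLI proteins and binds SUFU, had 23.2, 22.8, 22.4 and 22.6 CPM with antibody and 34.6, 26.9, 26.6 and 26.4 CPM without. All antibody libraries were lower, and replicate 1 stood above the rest of its arm (log2 fold change -0.33 ± 0.08 SE, adjusted p = 0.0125). It was the only called gene of 15. On the authors' RPKM the call of Ulk3 was lost (adjusted p = 0.0583 on log2(RPKM + 1)).

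Of the ligand genes, Ihh rose with antibody (log2 fold change 0.94 ± 0.11 SE, adjusted p = 7.5e-06), with 4.87 to 6.08 RPKM against 2.62 to 3.49 RPKM. Dhh, the ligand with the most RNA, had 16.2 to 17.5 RPKM with antibody and 17.2 to 20.5 RPKM without, and was not called (log2 fold change -0.16 ± 0.06 SE, adjusted p = 0.112). In CPM its arms narrowly did not overlap, at 38.11 to 41.21 with antibody and 41.22 to 48.58 without. Dhh became a call, as lower, under 2 of 19 alternative settings, 1 of them leaving out replicate 1 of the untreated arm (adjusted p = 0.0303). Lrp2 (log2 fold change 0.27 ± 0.10 SE, adjusted p = 0.0978) became a call, as higher, when replicate 2 of that arm was left out (adjusted p = 0.0471), with the replicate number as a block (adjusted p = 0.0376) and with no filter on low counts (adjusted p = 0.0185). Shh, with 7 to 16 counts per library against 0 to 7, did not pass the filter, and without the filter its adjusted p was 0.0467. On the other strand Shh shares 8828 bases with the lincRNA 9530036O11Rik (0 to 11 counts per library) and 728 bases with Gm26894 (1 to 8 counts), and with the strand setting of the counting unknown their reads cannot be told apart from those of Shh.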

How the data were processed

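PolyA RNA of sorted cancer cells was sequenced in 8 strand-specific libraries, 4 per arm. Per the submitters' processing notes, CASAVA 1.8.2 and TopHat2 2.0.9 were used, with build GRCm38. No label names the counting tool, annotation release or strand setting. Raw counts per Ensembl gene and RPKM values were deposited by the authors, the RPKM equal to the count divided by a fixed gene length and the library total. Samples were grouped by the treatment label, and columns matched by title. The treatment protocol reads the same for all 8 samples, so the arms rest on that label alone. A part of the genotype and a gene of the pathway lists are not reported here.

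Counts of all genes were tested with edgeR 4.0.16 (R 4.3.3; TMM, filterByExpr, quasi-likelihood F test, Benjamini-Hochberg at 0.05); the model held the arm alone. Standard errors come from the F statistic. CPM use TMM factors, except those given with a Poisson interval and the limit for Boc, which use the unscaled library totals. The procedure was tested on simulated counts. Alternatives were scaling by RLE or upper quartile, a filter of 1 CPM in 4 libraries or none, the replicate number as a block, DESeq2 1.42.0, limma 3.58.1 (voom, and log2 of the authors' RPKM plus 1 or 0.1), thinning to the smallest library, and leaving out libraries.

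The 9 genes and the lists were chosen with earlier results of these data known. Besides the 9, the rule named Shh, Ihh, Dhh, every called gene of a pathway list (or the 2 smallest p), Col1a1, called stellate markers, 4 epithelial markers and the nearest genes. Same-numbered libraries of the arms did not deviate together (correlation -0.029 to 0.007), so numbers were not taken as pairs. Of the other marker lists, leukocyte (2 genes tested), endothelial (2) and acinar (1) markers held 0 called genes by edgeR, with 0 at an unadjusted p under 0.05 and 0 by DESeq2 and voom. Cftr, Col3a1, Arrb2 and pathway and marker genes named for their level lie outside that rule and were chosen after their values were seen. The uncalled target genes lie outside it too, and all of those tested are given.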

Additional observations from a re-analysis of the deposited data

Results flagged for a closer look

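Among the values of the named genes, 3 of 43 sets of 4 libraries held a library far from its arm (by Dixon's test at the 95% level), where chance gives about 5%. All 3 were replicate 1 without antibody, the library that also stands apart over all genes. Gli2 stood there at 0.312 CPM (4 counts) against 0 in the other 3 libraries. Where the rest of an arm has 0, the test flags any count, even a single read, so the Gli2 flag adds nothing to the counts themselves. Why this library held all 4 of them was not tested. Ulk3 stood at 34.6 CPM against 26.4 to 26.9, and without this library it was still called as lower (log2 fold change -0.23). Col1a1 stood at 15.4 CPM against 10.1 to 10.7, and without this library it was called as higher with antibody (log2 fold change 0.53, adjusted p = 0.0153).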

How the results depend on the processing

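Under all 19 alternatives 0 of the genes tested were called, which were 5 or 6 of the 9 except without a filter, where all 9 were tested. At an unadjusted p under 0.05, Hhip passed without a filter and Smo without replicates 1 and 4 of the arm without antibody (log2 fold change -0.11, adjusted p = 0.147). Gli3 could not be tested under the stricter filter, thinning or DESeq2. Of 111 refitted fold changes of the 6 tested genes, 18 had the other sign, all close to 0. For Ptch1 these were -0.0030 with the replicate block, -0.0039 with upper quartile scaling and -0.0631 without replicates 1 and 4 of the arm without antibody, and leaving out single libraries gave -0.0434 to 0.0329. For Gas1 they were 0.0013 with voom, 0.0031 with no filter, 0.0027 on log2(RPKM + 1) and 0.0038 on log2(RPKM + 0.1), and leaving out single libraries gave -0.0669 to 0.0346. For Sufu leaving out single libraries gave -0.0731 to 0.0321. Krt8 had -0.0184 without replicates 1 and 4 of the arm without antibody, against 0.10 in all libraries. The order of the 9 genes was the same in TMM-scaled CPM per kilobase, but this uses the same counts and gene lengths and could hardly differ. The order does depend on the lengths. In mean CPM, without them, Cdon (19.7) stood above Gas1 (11.7).

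All genes called numbered 1144, and 675 on log2(RPKM + 1), 670 on log2(RPKM + 0.1) and 2263 without replicates 1 and 4 of the arm without antibody, with 679 (without antibody replicate 2) to 1485 when single libraries were left out, 695 without antibody replicate 3. Other pathway genes called numbered 4, with 7 without replicates 1 and 4 of the arm without antibody and 4 to 6 when single libraries were left out. Ihh, Mycn and Arrb1 were called under all 19. With the replicate block 1005 genes, 5 other pathway genes and 0 of the 6 genes tested were called; 0 of 8 libraries resembled its own number best. The block added the call of Lrp2. Col1a1 became a call without antibody replicate 3 (adjusted p = 0.0458). Why these counts moved was not tested. Depth limits Gli1, Gli2 and Hhip, with at most 7 counts per library.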
